A study of Mus musculus with 21 samples.

Results

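Of the 160 mouse immunoglobulin kappa V genes (symbols beginning with Igkv) in the deposited count files, 85 were annotated on the minus strand of chromosome 6, and 82 of these are described here. The 82 genes were chosen by symbol and strand, with named genes taken out. Igkv4-91, Igkv12-89 and Igkv5-48, which also lie on the minus strand, were left out, as was Igkv14-126, which the annotation places on the plus strand. These 4 genes are called the left-out genes. They include genes of very high counts, since Igkv12-89 reached 55.65% and Igkv5-48 36.85% of Igkv counts in a TET2-KO B-1a library, so that the summed share of the members depends on which genes were left out. Of the 82 genes, 59 were annotated as functional V genes and 23 as V pseudogenes.

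RNA was measured in 21 libraries of B cells sorted from the peritoneal cavity of C57BL/6 mice, WT or TET2-KO, to ask what a global loss of TET2 changes in each B cell subset. TET2 is an enzyme that oxidizes methylated cytosine in DNA, and the TET2-KO allele lacks its catalytic exons in all cells of the mouse, not in B cells alone. B-1a cells were measured in 4 WT and 4 TET2-KO libraries, B-1b cells in 4 WT and 3 TET2-KO libraries, and B-2 cells in 2 WT and 4 TET2-KO libraries. B-1 cells were sorted as IgD-lo CD23-lo B220-lo, and CD5 separated B-1a (CD5+) from B-1b (CD5-). Neither age nor sex of the mice was given in the labels, no treatment was named, and nothing in the labels ties a library to a mouse, so that every p-value measures the spread between libraries only.

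A kappa light chain is made when the RAG recombinase joins a V gene to a J gene next to the constant gene Igkc. RAG cuts at recombination signals, each a heptamer and a nonamer held apart by a spacer, and pairs a short spacer with a long one. Igkj and Igkc are read from the plus strand, so a V gene on the plus strand is joined by deletion of the DNA in between, whereas a V gene on the minus strand is joined by inversion and leaves that DNA in the chromosome.

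The recombination signals of the leading members and of their joining partner Igkj1 are shown because they are the sequences on which the joining of inverted V genes rests. All were read from GRCm39, the build of the count files, on the coding strand of each gene from 5′ to 3′, with the heptamer and the nonamer in capitals and the spacer in lower case. The 12 genes with the highest mean share of Igkv counts over the 21 libraries come first, from the nearest to Igkj1 to the farthest. Igkv12-41, Igkv4-68 and Igkv9-124 follow because they fell in TET2-KO B-1a cells.
Igkv6-15, chr6:70383425-70383452, minus strand: CACAGTActtcagcctcctACATAAACC
Igkv8-16, chr6:70363628-70363655, minus strand: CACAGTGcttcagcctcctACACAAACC
Igkv6-20, chr6:70312797-70312824, minus strand: CACAGTGcttcagcctcccACATAAACA
Igkv6-23, chr6:70237365-70237392, minus strand: CACAGTGcttcagcctcctACATAAACC
Igkv8-24, chr6:70193814-70193841, minus strand: CACAGTGcttcagccttctACATAAACC
Igkv8-27, chr6:70148765-70148792, minus strand: CACAATGcttcagcctcctACAAAAACC
Igkv8-30, chr6:70094017-70094044, minus strand: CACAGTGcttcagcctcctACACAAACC
Igkv12-44, chr6:69791587-69791614, minus strand: CACAGTGattcaagccatgACATAAACC
Igkv12-46, chr6:69741479-69741506, minus strand: CACAGTGattcaagccatgACATAAACC
Igkv4-59, chr6:69415174-69415201, minus strand: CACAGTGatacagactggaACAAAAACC
Igkv19-93, chr6:68713253-68713280, minus strand: CACAGTGatacaaatcataACAAAAACC
Igkv10-96, chr6:68608919-68608946, minus strand: CACAATGatataagtcataACATAAACC
Igkv12-41, chr6:69835376-69835403, minus strand: CACAGTGattcaagccatgACATAAACC
Igkv4-68, chr6:69281790-69281817, minus strand: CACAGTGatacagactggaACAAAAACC
Igkv9-124, chr6:67919030-67919057, minus strand: CACAGTGatacaaattataACATAAACC
Igkj1, chr6:70699507-70699545, plus strand: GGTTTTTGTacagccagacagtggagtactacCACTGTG

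The V signals carried a spacer of 12 bases, and the signal of Igkj1 carried one of 23 bases, with the letters of the V heptamer and nonamer reversed and complemented. The heptamer CACAGTG stood directly after the gene in 49 of 59 functional members (83.1%), against 33 of 38 functional plus-strand Igkv genes (86.8%) and 13 of 23 pseudogene members (56.5%). The nonamer ACAAAAACC followed at the right distance in 20 functional members (33.9%), and in 12 functional plus-strand genes (31.6%). Among the 12 leading members, 9 had the heptamer CACAGTG and 3 the nonamer ACAAAAACC, whereas 6 had the nonamer ACATAAACC, a variant that 13 of the 59 functional members carried. Igkv6-15, the leading member, read CACAGTA, and Igkv10-96 and Igkv8-27 read CACAATG. Of the 10 functional members without CACAGTG at this place, 3 read CAGTGAT. These letters are the end of CACAGTG followed by AT, as would be read if the annotated gene end lay inside the signal. In such a gene the nonamer would be read out of place as well, so both counts depend on the annotated ends. Functional members with CACAGTG directly after the gene had a median share of 0.31% of Igkv counts, against 0.296% for the 10 without it there. Over 1% of Igkv counts were 8 of the 49 with it and 3 of the 10 without it, a difference that was not tested. Igkv12-41, Igkv12-44 and Igkv12-46 had the same signal in all letters.

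The octamer ATTTGCAT, the motif of kappa V promoters that binds POU proteins, was searched on the coding strand in the 250 bases before each annotated gene start. It was present in 40 of 59 functional members (67.8%), 29 of 38 functional plus-strand genes (76.3%), 10 of 23 pseudogene members (43.5%) and 15 of 1109 protein-coding genes of chromosome 6 (1.4%). In the 40 functional members that held it, the octamer began between 46 and 109 bases before the start, with a median of 96.5 bases. Its reverse complement ATGCAAAT was present in 2 functional members (3.4%) and in 6 of the protein-coding genes (0.5%). Of the 12 leading members, 5 had the octamer in this window, and the 19 functional members without it had a median share of 0.739%, against 0.225% for the 40 with it. Both are descriptions of letters in a fixed window, which the annotated start sets.

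Total counts per library ranged from 9667187 to 24152518, and Igkv genes took 37.46 to 55.81 counts for every 100 counts of Igkc. Some WT libraries stood apart from their labels. The summed level of 5 B-2 markers (Fcer2a, Ighd, Cr2, Ccr7 and Klf2) was 5245 CPM (counts per 1000000 counts of a library) in the library labelled B-1a WT 1 and 4703 CPM in the library labelled B-1b WT 2, within and just below the range of the TET2-KO B-2 libraries (4792 to 6088 CPM), whereas the other B-1 libraries had 1022 to 2096 CPM. The library labelled B-2 WT 1 had 1802 CPM, and its sum over 8 B-1 markers was 952.1 CPM, against 307.3 to 633.3 CPM in the TET2-KO B-2 and 1178 to 1519 CPM in the TET2-KO B-1a libraries. The libraries labelled B-1a WT 2 and B-1b WT 1 went against their labels in Cd5, the gene of the surface marker that separated the B-1 subsets. Cd5 was at 1.414 CPM in B-1a WT 2 and 4.389 CPM in B-1a WT 1, against 16.74 to 23.28 CPM in the other B-1a libraries, and at 14.04 CPM in B-1b WT 1, against 2.076 to 6.031 CPM in the other B-1b libraries. Values with WT libraries 1 and 2 omitted are therefore given as well. In these fits edgeR called 0 members in B-1a cells, in B-1b cells and in the interaction. For B-2 cells the omission leaves 1 WT library. Tet2 counts, 7.204 to 46.34 CPM, were summed over the whole gene and cannot show the deletion. Macrophage markers (8 genes, 4708 to 25090 CPM) were present in every group, and erythroid markers (7 genes) reached 1452 CPM in B-1a WT 1 against at most 28.68 CPM in TET2-KO B-1a libraries. The part of these other cells in the results was not tested.

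The members lay 224.881 to 3011.39 kb from Igkj1, with 33 of them under 1 Mb, 38 between 1 and 2 Mb and 11 beyond 2 Mb. Plus-strand genes were placed otherwise, with 16, 17 and 42 genes in these intervals. Between 1 and 2 Mb nearly all functional V genes were inverted, with 28 functional members and 1 functional plus-strand gene. The members formed 26 runs unbroken by a plus-strand gene, of which 13 held 1 member and 6 held 4 or more, with 55 members in all. The longest run, from Igkv4-54 to Igkv8-27, held 27 members in chr6:69608630-70149254 and took a mean of 11.25% of Igkv counts. Of the 2 runs nearest to Igkj1, Igkv8-24 to Igkv8-19 (6 members) took 6.859% and Igkv8-16 to Igkv3-12-1 (5 members) took 5.328%.

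**Figure D1:**
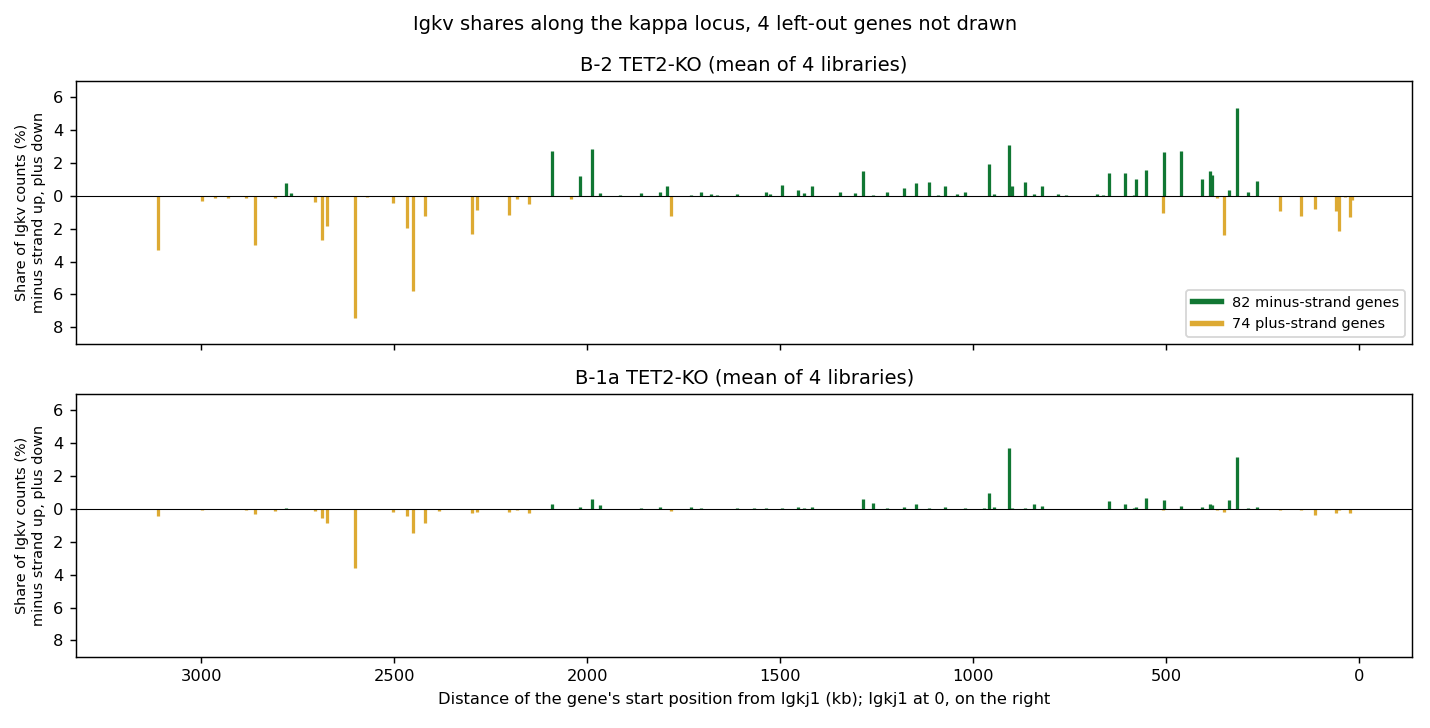
Igkv genes at their distance from Igkj1 in kb (horizontal axis, Igkj1 on the right) with their share of Igkv counts in percent (vertical axis), as means of the 4 TET2-KO B-2 libraries (upper panel) and the 4 TET2-KO B-1a libraries (lower panel), with the 82 members drawn upwards and 74 plus-strand genes downwards; the 4 left-out genes are counted in the total but not drawn. The highest member is Igkv6-15, in the run nearest to Igkj1, in the B-2 panel (5.061 to 5.545% in its libraries) and Igkv12-44 in the B-1a panel (0.8801 to 10.02%).

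All 82 members had a count in at least 1 library, 56 had counts in all 21, and 64 had a mean of 10 counts or more. The members together took a mean of 35.45% of Igkv counts over the 21 libraries, each library weighted equally. Functional members accounted for 34.9% and pseudogene members for 0.5503%, with a median of 0.3098% per functional member and 0.001635% per pseudogene member. Functional members were of similar counted length (344 to 402 bases), and counts divided by length gave nearly the same differences in the summed share. Across the 59 functional members, the share had a Spearman correlation of -0.259 with the distance from Igkj1, and -0.3 to -0.223 within the groups, which share the same genes and gene lengths.

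By family, the Igkv6 members took the most counts (8.605% of Igkv counts from 7 genes), before Igkv8 (7.9% from 10 genes), Igkv4 (7.014% from 32 genes) and Igkv12 (4.92% from 10 genes). The 12 leading members held 21.36% of Igkv counts and 60.25% of the members' own counts. They were Igkv6-15 (mean share 3.654%), Igkv12-44 (2.536%), Igkv8-24 (2.164%), Igkv19-93 (1.947%), Igkv10-96 (1.748%), Igkv6-20 (1.723%), Igkv12-46 (1.701%), Igkv6-23 (1.466%), Igkv8-27 (1.291%), Igkv8-30 (1.129%), Igkv4-59 (1.038%) and Igkv8-16 (0.9598%). Each encodes the V region of a light chain, and no antigen can be assigned to them from these counts.

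The leading members varied more between B-1a than between TET2-KO B-2 libraries. Igkv6-15 took 5.298, 5.545, 5.061 and 5.48% of Igkv counts in the 4 TET2-KO B-2 libraries. In TET2-KO B-1a libraries 1 to 4 it took 10.98, 0.6187, 0.5373 and 0.5277%, and in WT B-1a libraries 5.669, 3.176, 1.165 and 1.518%. A single TET2-KO B-1a library thus lay above the other 20 libraries, and the other 3 lay below them all.

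Igkv12-44 took 1.139, 10.02, 2.863 and 0.8801% in TET2-KO B-1a libraries 1 to 4. It took 3.119, 1.472, 1.933 and 2.38% in the WT B-1a libraries, within the span of the TET2-KO libraries. Igkv6-15 and Igkv12-44 were the only members over 10% of Igkv counts in any library, each in 1 TET2-KO B-1a library.

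**Figure D2:**
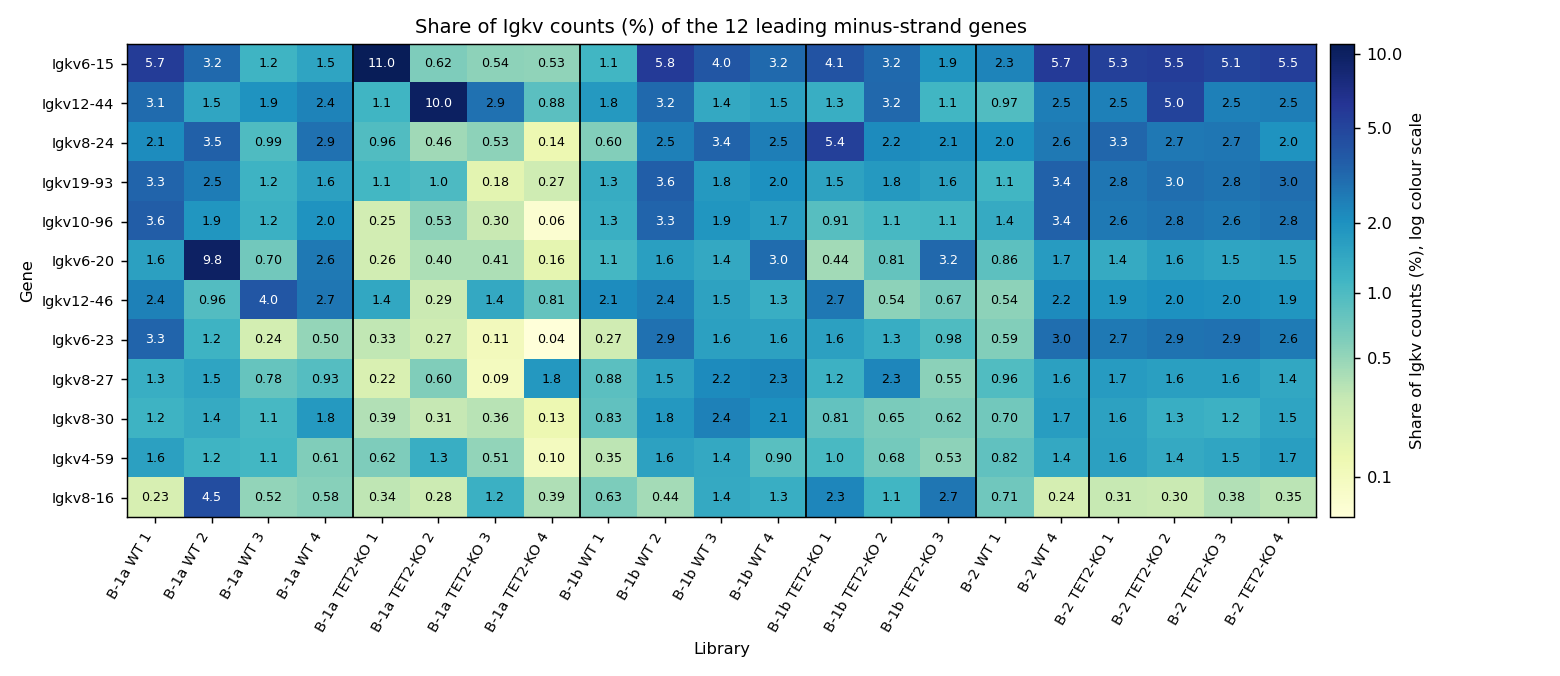
Share of Igkv counts in percent (printed in each cell, with a log colour scale) of the 12 leading members (rows) in each of the 21 libraries (columns, by group). TET2-KO B-2 libraries are close to each other in most rows, with Igkv12-44 in library 2 (5.049%) as an exception, whereas Igkv6-15 in TET2-KO B-1a library 1 (10.98%) and Igkv12-44 in library 2 (10.02%) stand out from the low values around them.

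In B-1a cells, the members took a smaller share of Igkv counts in TET2-KO than in WT libraries. The share was 49.72, 47.42, 25.31 and 33.61% in WT libraries 1 to 4 and 22.08, 21.83, 12.72 and 9.794% in TET2-KO libraries 1 to 4, with 95% Wilson intervals under 1 percentage point wide that cover counting error only. The groups did not overlap. The means were 39.0% ± 11.6 (SD, n = 4) and 16.6% ± 6.29 (SD, n = 4), a difference of -22.4 percentage points (two-sided exact permutation test, p = 0.0286, the smallest that 4 against 4 libraries can give, and 0.107 after Benjamini-Hochberg adjustment over 15 tests). With WT libraries 1 and 2 omitted the difference was -12.9 points (exact p = 0.133, the smallest possible). In bulk RNA, fewer cells that use a V gene and less of its RNA per cell cannot be told apart.

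As a share of Igkv counts, the direction of this difference depended on how the left-out genes were counted. The 3 left-out minus-strand genes alone took 3.716, 6.671, 23.86 and 20.59% of Igkv counts in WT B-1a libraries and 39.5, 50.92, 59.47 and 51.26% in TET2-KO B-1a libraries. In an alternative added after the values had been seen, the members' share of the Igkv counts outside the 4 left-out genes was 52.4, 51.38, 48.9 and 54.31% in WT libraries and 59.97, 56.28, 55.28 and 68.49% in TET2-KO libraries. On that scale every TET2-KO library lay above every WT library, by 8.26 points in the mean (60.01% ± 6.01 against 51.8% ± 2.26, SD, n = 4 each, exact permutation p = 0.0286, the smallest possible), and by 8.402 points with WT libraries 1 and 2 omitted (exact p = 0.133). With all minus-strand genes counted, the share was 14.2 points higher in TET2-KO libraries. In summed counts the members were thus lower in TET2-KO B-1a cells beside the left-out genes, and higher beside the remaining plus-strand genes. For every 100 counts of Igkc, the members had 11.71 to 23.57 counts in WT and 5.124 to 11.12 in TET2-KO B-1a libraries. In CPM the members summed to 2470 to 4739 in WT and 655.7 to 1632 in TET2-KO libraries. The groups overlapped on neither of these scales, and the members were lower in TET2-KO on both.

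**Figure D3:**
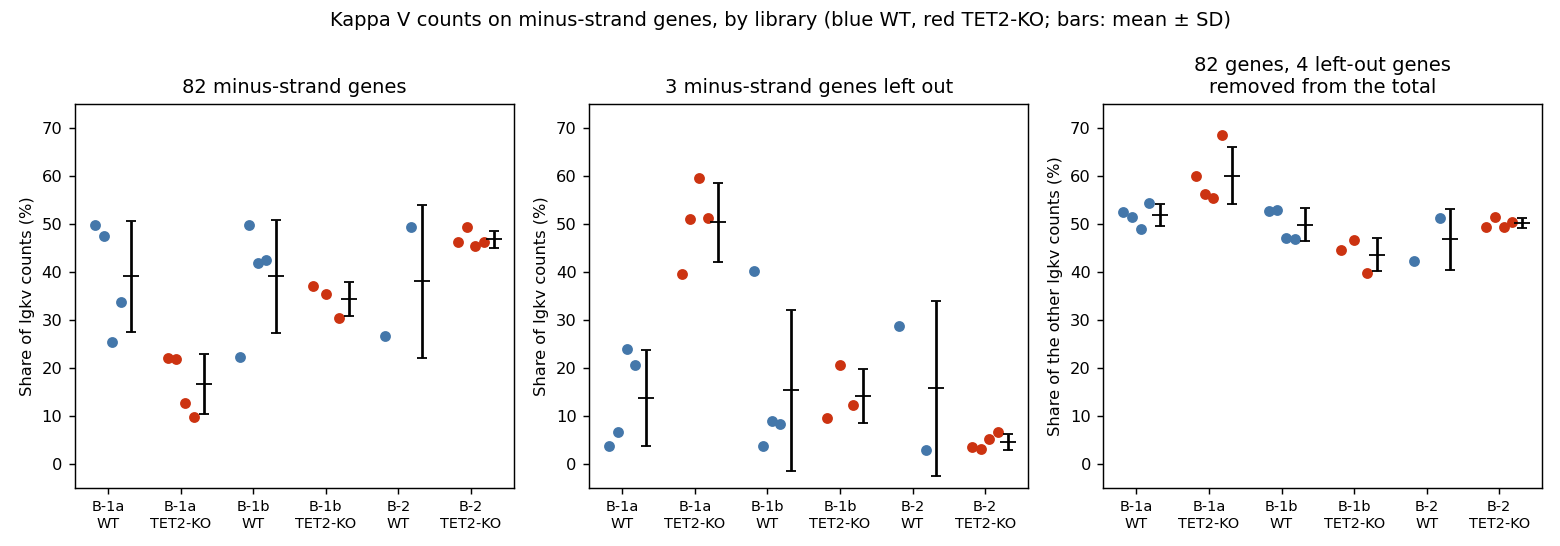
Share of Igkv counts in percent taken by the members (left) and by the 3 left-out minus-strand genes (middle), and the members' share of the Igkv counts outside the 4 left-out genes (right), each point a library (blue WT, red TET2-KO) beside its group mean with SD. TET2-KO B-1a libraries lie lowest in the left panel (9.794 to 22.08%) and highest in the right panel (55.28 to 68.49%).

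The members' counts were spread over fewer genes in TET2-KO B-1a cells. The effective number of members, the inverse Simpson index of their counts (the number of equally used genes that would give the same evenness), was 21.92, 13.54, 18.47 and 21.21 in WT B-1a libraries and 3.816, 4.444, 11.04 and 11.24 in TET2-KO B-1a libraries. All TET2-KO libraries lay below all WT libraries, with means of 7.63 ± 4.05 and 18.8 ± 3.80 (SD, n = 4 each, exact permutation p = 0.0286, the smallest possible, adjusted p = 0.107). Igkv6-15 alone held 49.75% of the members' counts in TET2-KO library 1, and Igkv12-44 held 45.91% in library 2. The mean distance of the members' counts from Igkj1 was 897.6 ± 141.6 kb in TET2-KO and 979.8 ± 105.1 kb in WT libraries (a difference of -82.25 kb, exact permutation p = 0.457). It rested in part on single libraries, with -17.55 kb without TET2-KO library 1, -46.94 kb without WT 3, -130.2 kb without WT 2 and -136.5 kb with WT libraries 1 and 2 omitted.

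Gene by gene, 62 members passed edgeR's filter on low counts in B-1a cells, and 4 fell at an adjusted p under 0.05, against 0.0503% of all genes tested. None rose. Lower fitted values were found for 55 of the 62 members, with a median log2 fold change of -2.72, against 0.02 over all genes and -1.95 over 39 plus-strand Igkv genes. An unadjusted p under 0.05 was reached by 45 members, all lower, against 7.85% of all genes. In 34 members every TET2-KO library was below every WT library in CPM, against 1.81% of all genes. DESeq2 called 34 members, all lower, and its calls over all genes were not counted. With WT libraries 1 and 2 omitted, edgeR called 0 members, with 33 at an unadjusted p under 0.05, 52 of 62 with lower values and a median of -1.63. Over all genes in that fit, 6599 of 13920 had lower values and the median was 0.016. How many of all genes reached an unadjusted p under 0.05 there was not counted.

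The lower members spread over the whole locus. Igkv4-68, one of the large Igkv4 family, had 69.76, 49.44, 45.22 and 30.21 CPM in WT and 7.859, 5.319, 6.163 and 8.722 CPM in TET2-KO B-1a libraries. The groups were well apart, and Igkv4-68 fell by 2.93 on the log2 scale (SE 0.286, edgeR quasi-likelihood test with Benjamini-Hochberg adjustment, adjusted p = 0.0232). Up to 20.1% of its 100-base windows were shared with other Igkv4 genes, so that its reads may be counted in part.

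Igkv8-30 had 112.3, 126.0, 103.6 and 130.7 CPM in WT and 28.74, 15.63, 25.39 and 8.973 CPM in TET2-KO B-1a libraries. WT libraries of this gene were even among themselves, libraries 1 and 2 included, and it fell by 2.69 (SE 0.334, edgeR with Benjamini-Hochberg adjustment, adjusted p = 0.0468). Igkv12-41 had 113.4, 20.3, 38.62 and 91.5 CPM in WT and 3.899, 4.939, 2.958 and 3.012 CPM in TET2-KO B-1a libraries. It was low in all TET2-KO libraries and uneven in WT, and it fell by 4.24 (SE 0.552, edgeR with Benjamini-Hochberg adjustment, adjusted p = 0.0469). Its neighbour Igkv12-44, with the same recombination signal, had a log2 fold change of 0.04 (SE 0.632, edgeR adjusted p = 0.986).

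Igkv9-124, among the farthest functional members at 2780.488 kb from Igkj1, had 56.14, 45.02, 36.44 and 36.63 CPM in WT and 8.759, 4.722, 2.465 and 2.635 CPM in TET2-KO B-1a libraries. It fell by 3.32 (SE 0.439, edgeR with Benjamini-Hochberg adjustment, adjusted p = 0.0469). With WT libraries 1 and 2 omitted the log2 fold changes of the 4 genes were -2.51 for Igkv4-68, -2.63 for Igkv8-30, -4.17 for Igkv12-41 and -3.01 for Igkv9-124, and none passed (edgeR adjusted p = 0.052 to 0.278).

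The next 6 members by p, none of which passed, were Igkv4-58, Igkv4-55, Igkv4-63, Igkv10-94, Igkv5-39 and Igkv10-96, with log2 fold changes from -3.64 (Igkv4-63) to -2.86 (Igkv5-39) and adjusted p of 0.0749 to 0.092 (edgeR with Benjamini-Hochberg adjustment). Igkv10-96 had 346.9, 173.8, 120.5 and 143.4 CPM in WT and 18.66, 26.76, 21.02 and 3.828 CPM in TET2-KO B-1a libraries, with no overlap. Values higher in TET2-KO were found for 7 members, among them Igkv12-44 and the pseudogenes Igkv12-40 and Igkv4-60, and in the pair of pseudogenes they rested on 1 library each. Igkv12-40 had 52.48 CPM in TET2-KO library 2 against at most 3.147 CPM in the other B-1a libraries. Igkv4-60 had 98.95 CPM in TET2-KO library 4 against at most 28.39 CPM in the others.

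**Figure D4:**
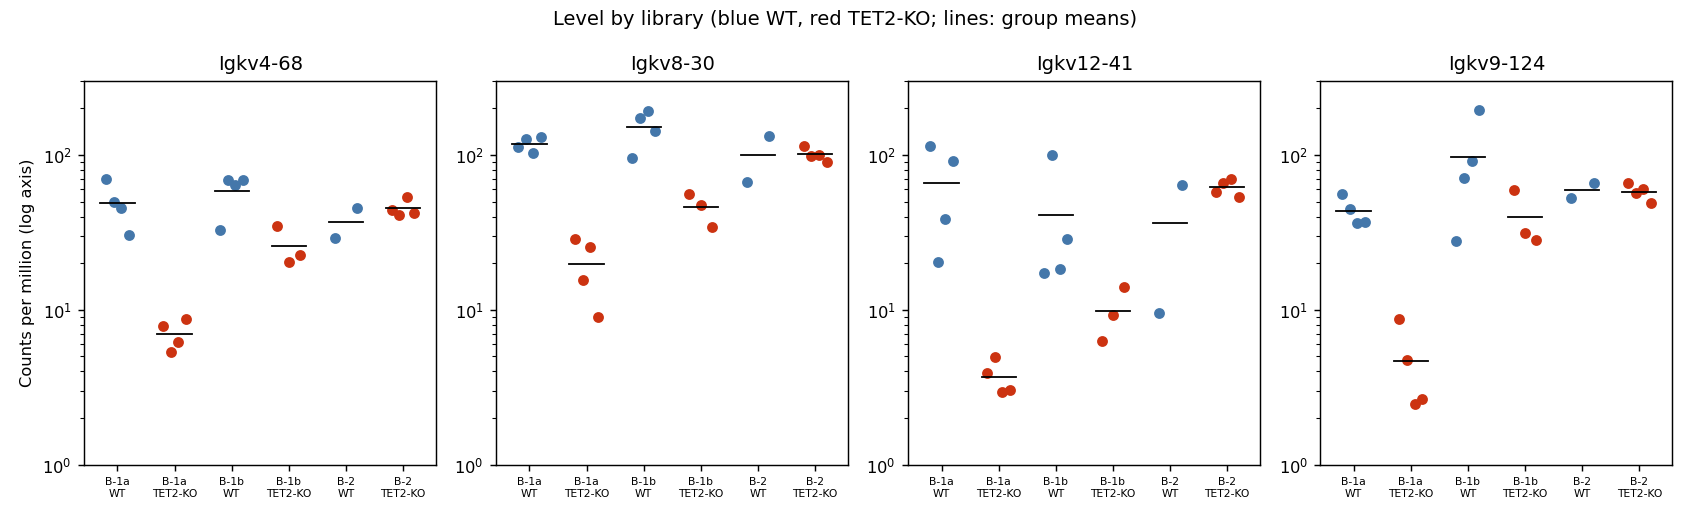
CPM on a log axis of the 4 members called in B-1a cells (Igkv4-68, Igkv8-30, Igkv12-41 and Igkv9-124), each point a library (blue WT, red TET2-KO) with a line at each group mean. The 4 TET2-KO B-1a libraries lie below every other library in each panel, between 2.465 and 28.74 CPM.

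**Figure D5:**
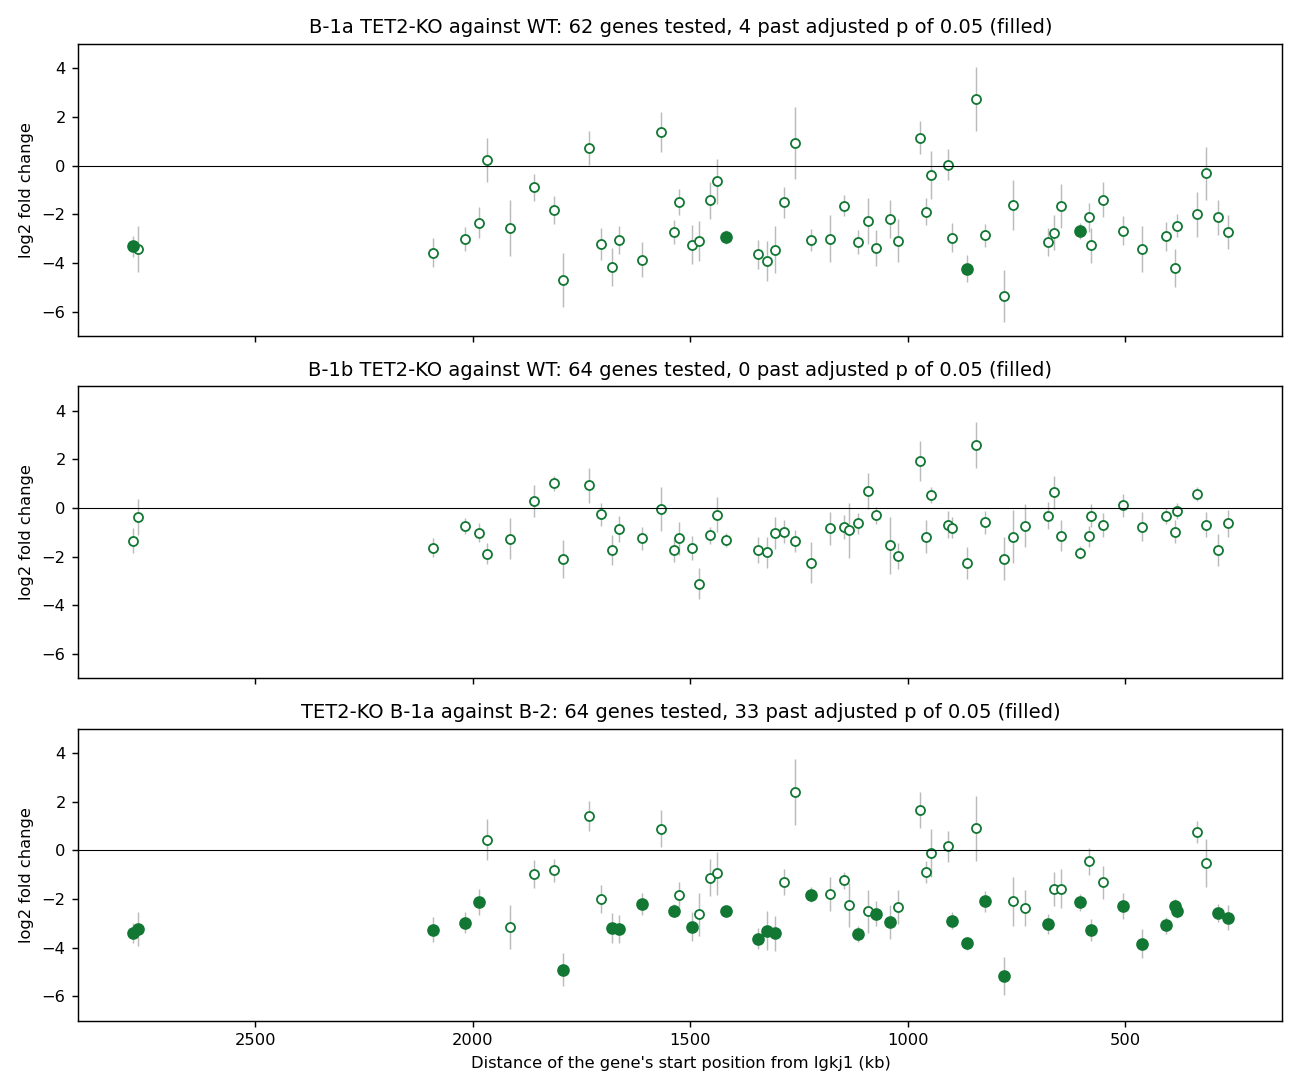
Log2 fold change of each tested member with its SE (vertical axis) against its distance from Igkj1 in kb, for TET2-KO against WT in B-1a cells (upper panel) and B-1b cells (middle panel) and for TET2-KO B-1a against B-2 libraries (lower panel), with members past an adjusted p of 0.05 filled. In the upper panel 55 of 62 members lie below 0 and 4 are filled, in the middle panel 0 of 64 are filled, and in the lower panel 33 of 64 are filled, all below 0.

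The number of members with 10 or more counts was 63 to 64 in WT and 48 to 58 in TET2-KO B-1a libraries. By place, members under 1 Mb held 72.4% ± 9.65 of the members' counts in TET2-KO and 63.4% ± 5.86 in WT B-1a libraries (SD, n = 4 each), and members beyond 2 Mb held 3.08% ± 1.09 and 9.13% ± 1.62. Plus-strand genes beyond 2 Mb held 95.3% ± 3.81 of plus-strand counts in TET2-KO and 84.4% ± 8.65 in WT libraries. The groups overlapped (90.36 to 98.47% and 71.96 to 91.98%). The left-out gene Igkv14-126 is among these far genes. It alone had 29198, 9500, 19813 and 36750 of the 47362, 25150, 31463 and 41557 plus-strand counts in TET2-KO B-1a libraries 1 to 4. By family, the Igkv4 members took 7.80% ± 1.19 of Igkv counts in WT and 2.98% ± 0.682 in TET2-KO B-1a libraries, and the Igkv8 members 8.39% ± 3.89 and 2.54% ± 0.243. The Igkv6 and Igkv12 members overlapped between the groups. Igkv6 took 3.012 to 15.82% in WT and 0.851 to 11.96% in TET2-KO libraries. Igkv12 took 2.792 to 6.953% and 1.823 to 11.51%, with means of 5.631 and 5.08%.

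Genes that act on the locus were given by lists. Of 12 genes of recombination and end joining, 9 were tested in B-1a cells and 0 passed in either direction (0 at an unadjusted p under 0.05). Those left untested were Rag1, Rag2 and Dntt, each at 0.12 CPM or less in every B-1a library. The RAG recombinase itself was therefore not tested. Of 18 factors of the kappa promoter and enhancers, 18 were tested and 0 passed, with 1 at an unadjusted p under 0.05. That gene was Pou2af1, the coactivator of POU proteins at the octamer, with a mean of 444.5 CPM in TET2-KO and 702.2 CPM in WT libraries (log2 fold change -0.77, edgeR adjusted p = 0.628). Pou2f2, which binds the octamer, had 162.2 and 122.3 CPM (0.28, edgeR adjusted p = 0.69). Igkc, which every kappa transcript carries, had 13400 CPM in TET2-KO and 19160 CPM in WT B-1a libraries (-0.63, edgeR adjusted p = 0.389), a smaller difference than the members' median. The 5 B-2 markers had a median log2 fold change of -2.35 and the 7 erythroid markers (5 tested) one of -6.34 in this comparison, and 0 of either list passed. At an unadjusted p under 0.05, 3 of the 5 B-2 markers and 5 of the 5 tested erythroid markers were lower in TET2-KO, as were the members. The summed B-2 markers were 5245 CPM in B-1a WT 1, but 1134, 1380 and 1308 CPM in WT 2 to 4, against 1022 to 1636 CPM in TET2-KO libraries. Ccr7 and Fcer2a were higher in each of WT 2 to 4 than in every TET2-KO library, whereas Ighd, Cr2 and Klf2 overlapped. The part of B-2 and erythroid cells in the members' values was not tested.

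In B-1b cells no member passed. The members took 22.26, 49.76, 41.76 and 42.37% of Igkv counts in WT and 37.07, 35.43 and 30.31% in TET2-KO libraries, and the groups overlapped (39.0% ± 11.8, n = 4, and 34.3% ± 3.53, n = 3, SD, exact permutation p = 0.629, with 0.0571 the smallest that 4 against 3 can give). Among the WT libraries B-1b WT 1, the one with high Cd5, was low. The difference in means was -4.767 points, -10.36 without WT 1, -1.194 without WT 2 and -7.795 with both omitted (exact p = 0.2, the smallest possible). Outside the 4 left-out genes the groups did not overlap, at 46.83 to 52.87% in WT and 39.71 to 46.51% in TET2-KO libraries. The difference on this scale was -6.251 points (exact permutation p = 0.0571, the smallest possible) and -3.321 points with WT libraries 1 and 2 omitted, opposite in sign to that in B-1a cells. Whether the TET2-KO effect on this share differs between the subsets was not tested. Of 64 members tested, edgeR called 0 (0% of all genes), with 25 at an unadjusted p under 0.05 (22 lower and 3 higher) against 5.48% of all genes. DESeq2 called 7 members, and its calls over all genes were not counted. Over 39 plus-strand Igkv genes the median log2 fold change by edgeR was -0.648, and -0.239 with WT libraries 1 and 2 omitted. For the members it was -0.89, and -0.42 with those libraries omitted. The smallest p was that of Igkv8-30, which had 95.12, 173.6, 192.7 and 141.7 CPM in WT and 55.95, 47.8 and 34.04 CPM in TET2-KO B-1b libraries (log2 fold change -1.84, SE 0.271, edgeR with Benjamini-Hochberg adjustment, adjusted p = 0.177).

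Whether the TET2-KO effect differed between B-1a and B-1b cells was tested as an interaction. Of 65 members, 0 passed (0% of all genes), with 26 at an unadjusted p under 0.05, all with a lower value in B-1a, against 1.57% of all genes, and DESeq2 called 0. Of 44 plus-strand Igkv genes, 16 reached an unadjusted p under 0.05 by edgeR, also all with a lower value in B-1a. The median of the difference was -1.61 on the log2 scale for the members and -1.823 for the plus-strand genes. With WT libraries 1 and 2 omitted, the difference had a median of -0.97 for the members and -1.295 for the plus-strand genes. For Igkv4-68 it was -1.63 (SE 0.399, edgeR adjusted p = 1.00). The members' effects in the 2 subsets are thus given side by side and are not shown to differ.

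In B-2 cells, the members took 26.70 and 49.30% of Igkv counts in the WT libraries numbered 1 and 4, and 46.14, 49.37, 45.27 and 46.17% in TET2-KO libraries (exact permutation p = 0.533, with 0.133 the smallest possible). The library labelled B-2 WT 1, which the B-2 markers set apart, was the low one, and the other WT library lay within the TET2-KO range. Without WT 1 the difference of 8.74 points became -2.563. Of 66 members, edgeR called 0 (0% of all genes), with 8 at an unadjusted p under 0.05 against 8.86% of all genes. DESeq2 called 2 members, and its calls over all genes were not counted.

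The subsets were compared among TET2-KO libraries, all of which kept to their labels by the marker sums. In B-1a against B-2, the members' share was 30.1 points lower (16.6% ± 6.29 against 46.7% ± 1.81, SD, n = 4 each, exact permutation p = 0.0286, the smallest possible, adjusted p = 0.107), and 9.91 points higher outside the 4 left-out genes. The TET2-KO B-1a libraries are the same as in the comparison with WT, so the comparisons are not independent. Of 64 members, 33 passed, all lower in B-1a, against 8.99% of all genes, and 47 were lower in every B-1a library, against 13.6% of all genes. Among 40 plus-strand Igkv genes, 17 fell and 1 rose.

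The largest falls were those of Igkv12-38 (-5.17), Igkv13-85 (-4.89), Igkv6-23 (-3.83), Igkv12-41 (-3.82) and Igkv4-63 (-3.63), each with an edgeR adjusted p of 0.00346 or less. Igkv12-38 had only 6, 7, 1 and 0 counts in B-1a libraries, and 7.849, 11.44, 10.45 and 6.517 CPM in B-2 libraries. It passed the filter on low counts through its B-2 libraries alone. The filter thus set its direction, and the size of its fall rests on counts near 0. Igkv6-23 had 24.54, 13.46, 7.395 and 2.51 CPM in B-1a and 194.3, 220.9, 241.9 and 156.3 CPM in B-2 libraries of TET2-KO mice. Igkv13-85 had 0.8999, 2.659, 1.417 and 0 CPM in B-1a and 45.56, 50.68, 46.75 and 37.45 CPM in B-2 libraries, with 47.2% of its 100-base windows shared with another gene. Both were low in all B-1a libraries and even in B-2. Igkv12-44 (0.16), Igkv6-15 (-0.52) and Igkv8-16 (0.76) did not pass.

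In TET2-KO B-1b against B-2 libraries, members were called in both directions. The members' share was 34.3% ± 3.53 (SD, n = 3) against 46.7% ± 1.81 (SD, n = 4), with an exact permutation p of 0.0571, the smallest possible. The difference of -12.47 points was -2.952 with the left-out minus-strand genes counted as members (exact p = 0.457) and -6.546 outside the 4 left-out genes (exact p = 0.0571). Of 65 members, 6 passed, 3 higher and 3 lower in B-1b, against 2.12% of all genes. Igkv8-16, the member of the Igkv8 family nearest to Igkj1, had 156.7, 82.94 and 149.5 CPM in B-1b and 22.41, 23.05, 31.95 and 21 CPM in B-2 libraries, and it rose by 2.52 (SE 0.273, edgeR with Benjamini-Hochberg adjustment, adjusted p = 0.000837). Its B-1b libraries were all above its B-2 libraries.

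Igkv7-33, the sole Igkv7 member, had 14.86, 24.82 and 11.06 CPM in B-1b and 3.991, 1.848, 3.687 and 1.034 CPM in B-2 libraries (2.79, edgeR adjusted p = 0.0218). Igkv4-86 had 90.39, 85.15 and 88.05 CPM in B-1b and 21.95, 19.09, 26.59 and 9.103 CPM in B-2 libraries (2.30, edgeR adjusted p = 0.00594). Igkv12-41 (-2.53), Igkv4-72 (-1.73) and Igkv10-96 (-1.42) were lower. Igkv12-41 had 6.255, 9.309 and 14.0 CPM in B-1b and 57.73, 65.55, 69.82 and 53.58 CPM in B-2 libraries, and was thus low in both B-1 subsets of TET2-KO mice.

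Counts of near-identical V genes carry a limit. Of the 59 functional members, 17 (28.8%) shared at least 1 window of 100 bases with another gene, the highest share of windows being 47.2%, and fragments that align to both are not counted. No member overlapped another annotated gene on either strand, and the counting did not use strand.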

How the data were processed

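Per the labels and the study's methods, the authors used fastp for trimming, STAR for alignment to GRCm39 and featureCounts version 1.6.1 with GENCODE vM32 for counting, which ignored strand and dropped multi-mapping fragments and those lying on more than 1 gene. The deposited values are these raw counts for 56953 genes, with no normalization. The library preparation is described as amplification of full-length cDNA by the methods and as poly-T selection with random priming by the labels. Symbols were taken from GENCODE vM39 (643 identifiers had none), and positions and strand from the count files.

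CPM is the count per 1000000 counts of a library. Genes were tested on the whole table in R 4.3.3 by edgeR 4.0.16 with limma 3.58.1, using TMM factors, filterByExpr by group, robust quasi-likelihood fits of each comparison's own libraries, and Benjamini-Hochberg adjustment over all genes tested, at 0.05. A gene counts as non-overlapping where all CPM of a group lie below all of the other. Shares, effective numbers and mean distances were computed per library and compared by two-sided exact permutation tests, adjusted over 15 tests (Python 3.11.15, numpy 2.4.6, pandas 2.3.3, scipy 1.17.1, matplotlib 3.10.9). The scripts were tested on simulated counts. Recombination signals were read directly after the annotated end of each V gene.

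The members, lists and tests were chosen with earlier results of these data known. Named are the 12 members with the highest mean share, members over 10% in any library, per comparison up to 5 rising and 5 falling members with the largest log2 fold change at an adjusted p under 0.05, and the 10 with the smallest p in B-1a cells; Igkv12-40, Igkv4-60 and Igkv8-30 in B-1b cells were singled out after their values were seen. Alternatives were DESeq2 1.42.0, no filter, RLE factors, TMM without immunoglobulin genes, a block for the replicate number, leaving out each library, omitting WT libraries 1 and 2, counts divided by length and the left-out minus-strand genes counted as members. Whether equal numbers pair libraries was checked by the correlation of their deviations from group means. It was -0.138 to 0.41 and not above 0.1 in every pair, so that the numbers were not shown to pair libraries. A WT and a TET2-KO library cannot come from the same mouse, but subsets of TET2-KO mice can. Among TET2-KO libraries 1 to 4 it was 0.327, 0.087, -0.138 and 0.134 for B-1a with B-2. For B-1b with B-2 it was 0.234, 0.151 and -0.038 in libraries 1 to 3. These mixed values cannot decide whether the TET2-KO subsets are paired. V-J junctions need the reads and were not analysed here. A B-2 marker and a marker of all B cells were dropped from the marker lists and are not reported here.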

Additional observations from a re-analysis of the deposited data

Results flagged for a closer look

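In groups of 4 libraries, the shares of the 12 leading members and the summed measures were searched for a library whose gap to the nearest other took nearly the whole range of its group (Dixon's test at 95%). Of 60 groups, 4 held such a library, and chance alone gives about 1 in 20. Igkv6-15 took 10.98% of Igkv counts in TET2-KO B-1a library 1, against 0.5277 to 0.6187% in the other TET2-KO B-1a libraries. Igkv12-44 took 5.049% in TET2-KO B-2 library 2, against 2.463 to 2.485% in the others of its group. Igkv8-16 took 4.45% in the library labelled B-1a WT 2, against 0.2293 to 0.5767%. Igkv8-16 also took 1.23% in TET2-KO B-1a library 3, against 0.2817 to 0.3899%.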

How the results depend on the processing

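Of 255 results under alternative settings, 181 kept their direction and their side of the threshold. The members' share of Igkv counts in TET2-KO against WT B-1a cells (-22.4 points) was 14.17 with the left-out minus-strand genes counted as members, 8.259 outside the 4 left-out genes (8.402 also with WT libraries 1 and 2 omitted), -12.85 without those libraries (p = 0.133, exact), and -26.97 to -18.84 with 1 library left out (p = 0.0571, exact, the smallest that 4 against 3 libraries give, so that this loss of significance says nothing about stability). In B-2 cells (8.74 points) it was -2.344 with the left-out genes counted, -2.563 without the library labelled WT 1, 20.04 without WT 4, and -1.177 also outside the left-out genes. In TET2-KO B-1a against B-2 (-30.13 points) it was 15.55 with the left-out genes counted, 9.909 outside them, and -31.95 to -27.86 with 1 library left out. The mean distance reversed with the left-out genes counted, to 315.3 kb in B-1a cells, 470.6 kb in TET2-KO B-1a against B-2 and 132.4 kb in TET2-KO B-1b against B-2. The effective number in B-1a cells (-11.15) was -12.2 with WT libraries 1 and 2 omitted (p = 0.133, exact) and -12.9 to -9.878 with 1 library left out. In B-2 cells it was 9.521 with the left-out genes counted and 0.3859 without the library labelled WT 1 (-4.871 without WT 4). In TET2-KO B-1a against B-2 it was -16.05 to -13.57 with 1 library left out, and in TET2-KO B-1b against B-2 it was 0.4481 without B-1b library 1 and -2.904 without B-1b library 2.

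Members called in B-1a cells (4) numbered 34 with DESeq2, 19 without the filter and 0 with WT libraries 1 and 2 omitted. With 1 library left out they numbered 0 (without TET2-KO 2 or 3), 1 (without any WT library or TET2-KO 4) or 3 (without TET2-KO 1). In B-1b cells (0) they numbered 7 with DESeq2 and 15 without the filter. In B-2 cells (0) they numbered 2 with DESeq2, 5 without the filter and 0 to 9 with 1 library left out, the 9 without WT 4. In TET2-KO B-1b against B-2 (6) they numbered 18 with DESeq2, 10 without the filter and 2 to 8 with 1 library left out, the 2 without B-2 library 2. The interaction (0) gave 33 without the filter. Calls over all genes were counted under the main settings only. Whether the members or the whole set of genes gained calls under an alternative therefore cannot be read from these numbers. The causes of these differences were not tested.

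With the replicate number as a block (replicate block), 16 members were called in B-1a cells, all lower, and the calls over all genes were not counted. The paired differences in share (-22.4 and -30.13 points) and effective number (-11.15 and -14.84) of B-1a cells were the same, with an exact p of 0.125, the smallest that 4 pairs give. The block changed no other call by over 1.5 times.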

Other observations

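Igkv12-40, a pseudogene member chosen here after its values were seen, was high in the libraries numbered 2 of all TET2-KO subsets. It had 52.48 CPM in B-1a, 31.39 CPM in B-1b and 30.53 CPM in B-2 library 2, against 0.8399 to 1.602 CPM in the other TET2-KO B-1a, 0.8608 and 4.69 CPM in the other B-1b and 2.69 to 3.193 CPM in the other B-2 libraries. Igkv12-44, which lies on the same strand nearby, was also highest in the TET2-KO libraries numbered 2, with 502.1 CPM in B-1a, 236.4 CPM in B-1b and 390.9 CPM in B-2 cells, against at most 199.7, 88.15 and 205.0 CPM in the others. The labels do not say whether these libraries come from the same mouse, and no 100-base window of either gene was shared with another gene.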
